A study of Mus musculus with 6 samples.

Results

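Detoxifying oxidoreductases and conjugating enzymes are the families of proteins that oxidise, reduce, hydrolyse and tag reactive or foreign small molecules. They were taken here by gene symbol, as the genes whose only listed symbol opens with Fmo, Adh, Akr, Aldh, Gst (classes alpha, kappa, mu, omega, pi, theta and zeta), Cbr, Ephx, Sult, Ugt1 or Ugt2 followed by its number, without Aldh1a1, Aldh1a2 and Aldh1a3. Of 19938 genes measured, 96 met this rule, and they fall into 9 families. The set was proposed from the same contrast of Scf-GFP+ cells with whole bone marrow, with Fmo2, Akr1c19 and Adh1 as its leading genes. Values of the members in that contrast are therefore a description and carry no p-value, and counts of called members are set beside the share over all genes without further reading.

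Affymetrix Mouse Gene 1.0 ST arrays measured 3 samples of Scf-GFP+ cells and 3 of whole bone marrow cells, 6 in all, all taken from young adults of C57BL/6 background. Scf-GFP+ cells make green fluorescent protein from the locus of stem cell factor (Kitl), a cytokine that blood stem cells depend on. They came from mice heterozygous for the knock-in, which have 1 altered Kitl allele, and were sorted a second time, whereas whole marrow came from wild-type mice and was sorted with no second pass named. Population, genotype and handling changed together and cannot be told apart. Sex changed with them in part, since only Scf-GFP+ replicates 1 and 2 had the female pattern of the sex-linked genes given below. Each sample was RNA of 5000 cells, amplified before hybridisation, and the labels do not say whether the aliquots of a group came from separate animals. By the sex-linked genes, Scf-GFP+ replicate 3 did not come from the same single animal as replicates 1 and 2. For the other aliquots this is not known, so a p-value reflects only how far these samples scatter, which may be technical. In bulk samples such as these, fewer cells of a type and less RNA per cell cannot be told apart.

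Detoxification runs in steps. In the first, monooxygenases, dehydrogenases, reductases and epoxide hydrolases expose or create a reactive group. In the second, transferases attach glutathione, sulfate or glucuronic acid, after which pumps export the water-soluble product. The liver is the organ best known for this chemistry, and the same enzymes also handle retinoids, steroids, lipid peroxides and amino acid breakdown products in other tissues.

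Marker genes were listed with earlier results of these data known, and Kitl is the locus behind the sort, so their values are a description. Over all genes, 9.01% were called higher and 7.89% lower by the rule given below. All 9 stromal markers (Kitl, Cxcl12, Lepr, Pdgfra, Pdgfrb, Angpt1, Ebf3, Foxc1 and Prrx1) were called higher in Scf-GFP+ cells, with a mean log2 level of 11.07 to 11.11 against 5.67 to 5.76 in whole marrow. All 6 pan-haematopoietic markers were called lower, but Scf-GFP+ replicate 1 stood apart, with 7.23 against 6.05 and 6.07 on replicates 2 and 3 and 10.10 to 10.44 in whole marrow. Neutrophil markers showed the same array more strongly, at 10.48 against 5.79 and 6.00, with 12.40 to 12.44 in whole marrow. Sex-linked genes also split the Scf-GFP+ arrays. Xist read 11.50 and 11.81 on Scf-GFP+ replicates 1 and 2 and 5.04 on replicate 3, against 4.99 to 5.10 in whole marrow, whereas the Y-linked Eif2s3y read 4.41, 3.72 and 8.23 against 7.33 to 7.97. Endothelial markers had mean levels of 7.09, 6.86 and 6.49 on Scf-GFP+ replicates 1, 2 and 3 and 6.41 to 6.50 in whole marrow, and smooth muscle markers 7.21, 7.64 and 6.79 against 6.19 to 6.27. These means joined unlike genes. Of 10 endothelial markers, Emcn (log2 difference 2.20) and Cdh5 (1.40) were called higher, Pecam1 (-1.90) lower and 7 were not called. The call of Cdh5 was lost without Scf-GFP+ replicate 1, among other arrays. Of 6 smooth muscle markers, Rgs5 (3.59) and Des (1.66) were called higher and 4 were not called. Levels of 5 hepatocyte markers were 5.13 to 5.19 in Scf-GFP+ cells and 5.20 to 5.31 in whole marrow. The part of these other cells and of sex in the members' values was not tested, other than by leaving out replicate 1 and by a term for the sex-linked split, both given below.

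A gene was called where limma's Benjamini-Hochberg adjusted p over all genes was below 0.05 and the groups differed at least 2-fold. Each difference is a log2 value, the Scf-GFP+ mean less the whole marrow mean, given with the standard error (SE) of limma and 3 arrays in each group. Among the 96 enzymes, 30 were called higher and 3 lower, where 9.01% and 7.89% of all genes were called higher and lower. The Scf-GFP+ arrays lay above all whole marrow arrays for 36 members, below them for 9 and among them for 51, where 19.0% and 26.4% of all genes lay above and below. The median difference was 0.08 over the members and -0.08 over all genes. In 12 members the difference was at least 8-fold higher, and in 6 at least 16-fold, as in 1.88% and 0.893% of all genes. Of the 63 members not called, 33 lay below the first quartile of the gene values (5.51 to 5.62) on all arrays, and 54 differed by under 0.5.

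**Figure D1:**
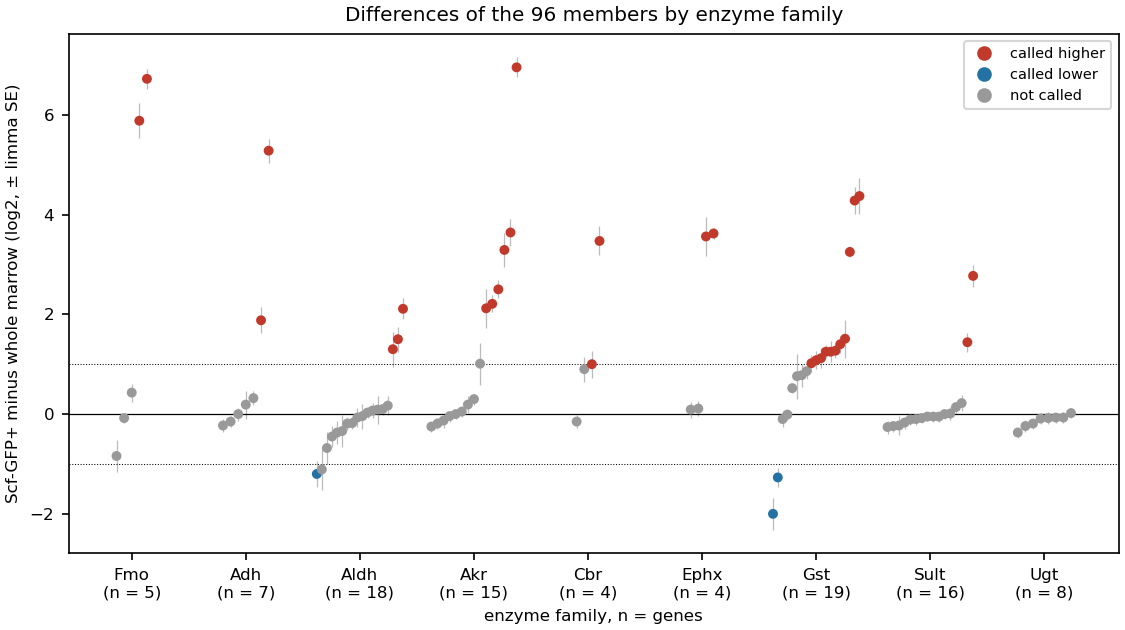
Difference between Scf-GFP+ and whole marrow arrays (log2, vertical axis) for each of the 96 genes, grouped by enzyme family along the horizontal axis, with limma's SE as bars and dotted lines at the 2-fold limits. Fmo, Adh and Akr genes reach the largest values, up to 6.95, while all 8 Ugt genes lie near 0.

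Neighbouring Akr1c genes diverged in these cells, so the DNA just upstream of several is printed first. Aldo-keto reductases of this subfamily reduce ketones on steroids, prostaglandins and foreign compounds. The windows cover 250 bases before the start site of the RefSeq gene models on GRCm38.p6. They are chr13:4233490-4233739 on the plus strand for Akr1c19, chr13:4190937-4191186 on the plus strand for Akr1c13, chr13:4279400-4279649 on the minus strand for Akr1c12 and chr13:4150647-4150896 on the minus strand for Akr1c18. The windows of Akr1c19 and Akr1c13 overlap other stretches of their own gene records. Capitals mark every stretch of 8 bases that occurs in all of the Akr1c19, Akr1c13 and Akr1c12 windows. Akr1c18, whose values did not differ by 2-fold, is shown for contrast.
Akr1c19: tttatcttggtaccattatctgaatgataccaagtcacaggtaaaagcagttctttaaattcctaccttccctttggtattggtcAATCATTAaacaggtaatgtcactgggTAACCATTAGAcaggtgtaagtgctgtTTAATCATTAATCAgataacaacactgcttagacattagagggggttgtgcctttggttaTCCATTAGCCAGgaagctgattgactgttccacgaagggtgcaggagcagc
Akr1c13: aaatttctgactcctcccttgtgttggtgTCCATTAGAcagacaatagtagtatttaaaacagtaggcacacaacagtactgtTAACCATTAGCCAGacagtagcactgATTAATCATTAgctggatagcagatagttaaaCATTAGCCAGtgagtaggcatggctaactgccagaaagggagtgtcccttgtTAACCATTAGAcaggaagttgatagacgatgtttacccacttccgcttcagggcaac
Akr1c12: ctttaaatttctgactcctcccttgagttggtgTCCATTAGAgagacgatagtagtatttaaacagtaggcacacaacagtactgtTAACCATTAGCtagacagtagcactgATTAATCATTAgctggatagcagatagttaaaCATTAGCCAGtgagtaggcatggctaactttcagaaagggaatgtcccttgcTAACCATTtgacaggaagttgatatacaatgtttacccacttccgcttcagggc
Akr1c18: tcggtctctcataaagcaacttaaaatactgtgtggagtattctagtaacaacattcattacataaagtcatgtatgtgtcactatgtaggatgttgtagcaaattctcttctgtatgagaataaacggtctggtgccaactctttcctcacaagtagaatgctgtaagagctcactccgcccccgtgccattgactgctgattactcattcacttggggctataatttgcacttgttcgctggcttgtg
Windows of Akr1c13 and Akr1c12 were 92.5% identical, those of Akr1c13 and Akr1c19 59.0% and those of Akr1c19 and Akr1c12 56.2%, while the other 18 pairs among 7 Akr1c windows had 43.7% to 52.1%. The shared stretches came to 45, 55 and 49 bases in Akr1c19, Akr1c13 and Akr1c12 and to none in Akr1c18. Most repeat the letters CATTA, which were counted after the windows had been read. On either strand, CATTA occurred 7 times in the Akr1c19 window, 5 times for Akr1c13 and 4 times for Akr1c12. Of 32851 windows in the promoter table, 1 held at least 7 copies, that of Akr1c19 itself. At least 5 copies were in 16 windows and at least 4 in 56, and the median window held 0. The letters were picked from these Akr1c windows, so the counts are no test of them. Akr1c6 and Akr1c21 had 2 copies, Akr1c18 had 1, and Akr1c14, itself called higher, had 0. A match of letters is a description and shows no binding site.

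Akr1c19 had the largest difference on the deposited scale. It read 10.74, 11.22 and 10.47 on Scf-GFP+ replicates 1, 2 and 3 and 3.96, 3.85 and 3.77 on whole marrow replicates 1, 2 and 3. The difference was 6.95 ± 0.20 (SE), a 124-fold ratio, and the lowest Scf-GFP+ array stood far above every whole marrow array. Its whole marrow values lay below the first quartile of the gene values, where no detection call shows a signal above background, so the size of the ratio is uncertain. In all, 9 genes called higher read so low in whole marrow: Akr1c19, Fmo2, Akr1c12, Akr1c14, Akr1b8, Ephx2, Adh7, Gstz1 and Gstm6. Akr1c12 read 7.97, 7.68 and 6.93 against 3.99, 3.96 and 3.72, a difference of 3.64 ± 0.27, with replicate 3 the lowest of the Scf-GFP+ arrays. Akr1c14, the mouse 3-alpha-hydroxysteroid dehydrogenase, read 6.18, 6.54 and 6.77 against 3.92, 3.90 and 4.19, a difference of 2.50 ± 0.18. Akr1c13 read 8.79, 8.83 and 9.05 against 6.36, 6.77 and 6.90, with a difference of 2.21 ± 0.17. None of these genes' groups overlapped. The remaining 4 numbered members of the cluster were near 0: Akr1c18, which inactivates progesterone, at -0.25 ± 0.10, Akr1c6 at -0.13 ± 0.14, Akr1c20 at -0.19 ± 0.11 and Akr1c21 at 0.05 ± 0.11. Along chromosome 13 the order is Akr1c14, Akr1c18, Akr1c13, Akr1c19, Akr1c12, Akr1c6, Akr1c20 and Akr1c21, so the genes called higher lie together except for Akr1c18 between Akr1c14 and Akr1c13. The likeness given above is of upstream windows, not of transcripts. Genes of 1 family can share probes, which was not examined here, so which copy was measured is uncertain.

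**Figure D2:**
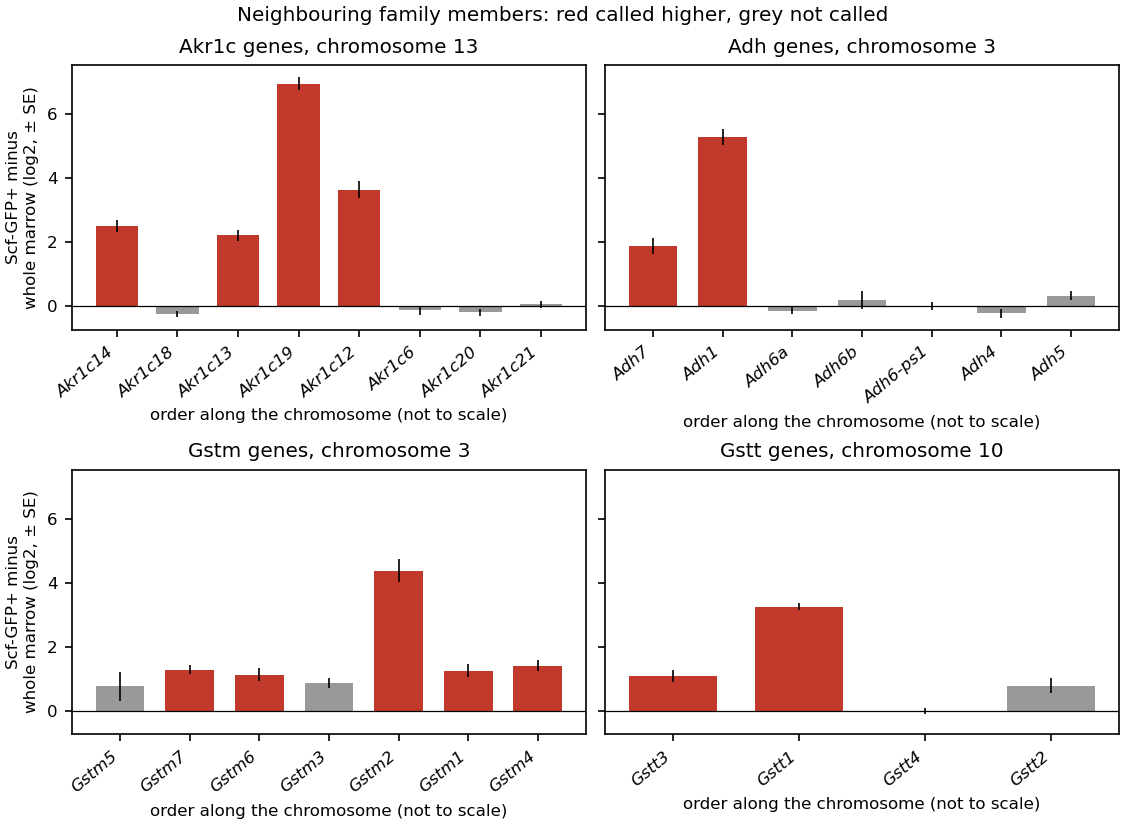
Difference between Scf-GFP+ and whole marrow arrays (log2, bars with SE) of neighbouring genes in 4 clusters, in their order along the chromosome and not to scale. Red bars were called higher and grey bars were not called. In the Akr1c cluster 4 of 8 are red, where 9.01% of all genes were called higher, and Akr1c19 reaches 6.95.

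Other aldo-keto reductases were led by Akr1b8, an aldose reductase-like enzyme first found as a gene induced by fibroblast growth factor. It read 7.59, 8.76 and 8.87 against 5.04, 5.00 and 5.32, a difference of 3.29 ± 0.34, and replicate 1 lay lowest. Its neighbour Akr1b10 read 8.65, 7.87 and 8.01 against 7.17, 7.98 and 6.35, and its 1.01 ± 0.42 was not called. The groups overlapped through whole marrow replicate 2. Without that array the difference was 1.42 and was called, whereas without whole marrow replicate 3 it was 0.60. Akr1e1, which reduces anhydrofructose, read 8.94, 9.63 and 9.27 against 7.33, 6.32 and 7.81, a difference of 2.12 ± 0.39. Akr1a1, the general aldehyde reductase, read high on all arrays, 11.47, 11.73 and 11.64 against 11.33, 11.23 and 11.38, and its difference of 0.30 ± 0.11 was not called. Over the family, 6 of 15 members were called higher and none lower, where 9.01% and 7.89% of all genes were called higher and lower.

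Flavin-containing monooxygenases add oxygen to nitrogen and sulfur atoms of drugs and metabolites. Fmo2, known from lung, read 12.14, 11.68 and 11.81 on the Scf-GFP+ arrays and 5.52, 5.00 and 4.94 on the whole marrow arrays. Fmo1, known from liver and kidney, read 12.26, 11.99 and 12.19 against 5.83, 7.13 and 5.83. The differences were 6.72 ± 0.20 for Fmo2, a 105-fold ratio, and 5.88 ± 0.35 for Fmo1, a 58.9-fold ratio, and in both genes the 2 groups lay far apart. Whole marrow replicate 2 was the highest marrow array for Fmo1. The neighbour Fmo4 read 5.75, 5.06 and 5.33 against 4.95, 5.01 and 4.89, with a difference of 0.43 ± 0.18. Fmo5 went the other way, with 8.84, 7.87 and 8.26 against 8.58, 9.37 and 9.55 and a difference of -0.84 ± 0.33, and its groups overlapped through whole marrow replicate 1. It was not called with all arrays, and was called lower, at -1.14, without that array. Leaving out single arrays gave -1.14 to -0.61. Fmo9 was near 0 at -0.08 ± 0.10.

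Alcohol dehydrogenases convert alcohols, retinol among them, to aldehydes. Adh1 read 11.05, 11.73 and 11.56 on the Scf-GFP+ arrays and 5.85, 6.53 and 6.10 on the whole marrow arrays, a difference of 5.28 ± 0.24 and a 39-fold ratio. Adh7, which also takes retinol, read 6.27, 7.05 and 7.26 against 5.12, 4.99 and 4.82, with a difference of 1.88 ± 0.26. In both genes replicate 1 was the lowest Scf-GFP+ array, and the groups did not overlap. Adh7 and Adh1 are neighbours on chromosome 3. The other 5 genes of that row, Adh6a, Adh6b, Adh6-ps1, Adh4 and Adh5, had differences between -0.23 and 0.32. Adh5, which removes formaldehyde, read 9.56, 9.80 and 9.71 against 9.41, 9.13 and 9.56, so groups overlapped at the whole marrow replicate 3 value and the difference was 0.32 ± 0.14.

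Aldehyde dehydrogenases complete that oxidation to the acid. Of 18 members, 3 were called higher and 1 lower, where 9.01% and 7.89% of all genes were called higher and lower. Aldh7a1, an enzyme of lysine breakdown, read 8.83, 8.91 and 9.10 against 6.59, 6.60 and 7.31, a difference of 2.11 ± 0.21. Aldh6a1, an enzyme of valine breakdown, read 8.35, 8.0 and 7.32 against 6.41, 6.39 and 6.37, a difference of 1.50 ± 0.25, with replicate 3 the lowest Scf-GFP+ array. Aldh3a1, abundant in cornea, read 6.30, 6.81 and 7.76 against 5.70, 5.60 and 5.66. Its 1.30 ± 0.35 was spread over the Scf-GFP+ arrays and lost the call on leaving out any array but Scf-GFP+ replicate 1: it was 1.38 without Scf-GFP+ replicate 2, 0.90 without replicate 3, and 1.33, 1.27 and 1.31 without whole marrow replicates 1, 2 and 3. Aldh3b2 was called lower: it read 6.75, 6.60 and 6.89 against 8.47, 7.44 and 7.91, a difference of -1.20 ± 0.26, which was -0.93 and not called without whole marrow replicate 1. Aldh1a7, a cytosolic form, read 5.71, 5.85 and 5.92 against 7.94, 6.22 and 6.63, and its -1.11 ± 0.42 was not called. It was called lower, at -1.46, without whole marrow replicate 2, but was -0.60 without whole marrow replicate 1, its highest array. Aldh2, the mitochondrial enzyme that removes acetaldehyde, read 8.39, 7.63 and 8.89 against 9.12, 8.60 and 9.21, and its -0.68 ± 0.33 was not called. Its groups overlapped. Aldh3b3, Aldh3a2 and Aldh3b1 were not called either, at -0.45 ± 0.21, -0.04 ± 0.25 and -0.34 ± 0.33, and the sign turned for Aldh3b1 (0.24) and Aldh3a2 (0.33) with the term for sex-linked genes explained below.

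Carbonyl reductases and epoxide hydrolases finish the first step. Cbr3, which reduces ketones and quinones, read 9.88, 10.22 and 10.04 against 7.25, 6.32 and 6.16, with a difference of 3.47 ± 0.29. Its neighbour Cbr1 read 8.54, 8.97 and 9.0 against 8.23, 7.28 and 7.99. Cbr1 stood at 1.00 ± 0.27, the member just inside the 2-fold limit. Leaving out Scf-GFP+ replicate 2 (0.94), Scf-GFP+ replicate 3 (0.92), whole marrow replicate 2 (0.73) or whole marrow replicate 3 (1.08) each ended the call. Next inside lay Akr1b10 at 1.01, not called, and Gstp1 at 1.02, and just outside lay Cbr4 at 0.90, Gstm3 at 0.86 and Fmo5 at -0.84. Cbr4 passed into the called genes when Scf-GFP+ replicate 3 (1.04) or whole marrow replicate 3 (1.08) was omitted.

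Ephx2, the soluble hydrolase that opens fatty acid epoxides, read 8.13, 8.26 and 8.02 against 4.45, 4.47 and 4.61, a difference of 3.62 ± 0.11. The microsomal Ephx1 read 10.16, 10.46 and 11.08 against 7.76, 6.41 and 6.86, a difference of 3.56 ± 0.39. Both genes' groups were wide apart, and Ephx1 varied more among its arrays. Ephx3 and Ephx4 were at 0.09 ± 0.16 and 0.11 ± 0.15 and were not called. Over all first-step families, 17 of 53 members were called higher and 1 lower, beside 9.01% and 7.89% of all genes.

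Glutathione S-transferases, which join glutathione to electrophiles, were the largest family here. Of 19 members, 11 were called higher and 2 lower, where 9.01% and 7.89% of all genes were called higher and lower. Gstm2, of the mu class, read 9.42, 10.86 and 10.20 on the Scf-GFP+ arrays and 5.53, 6.10 and 5.76 on the whole marrow arrays, a difference of 4.37 ± 0.36 with replicate 1 lowest. Gsta4, which conjugates the lipid peroxidation product hydroxynonenal, read 11.40, 11.01 and 11.21 against 7.32, 6.33 and 7.13, a difference of 4.28 ± 0.27. Gstt1, of the theta class, read 9.59, 9.75 and 9.57 against 6.45, 6.42 and 6.30, a difference of 3.25 ± 0.11. In each of these genes all Scf-GFP+ arrays stood above all whole marrow arrays.

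In the mu-class row on chromosome 3, Gstm2 had a difference of 4.37 between neighbours with 0.76 to 1.40. Of 7 genes, 5 were called higher, beside 9.01% of all genes. Gstm1, known from liver, read 10.56, 10.36 and 10.71 against 8.97, 9.19 and 9.71, a difference of 1.25 ± 0.21. Gstm4, Gstm7 and Gstm6 were at 1.40 ± 0.17, 1.27 ± 0.14 and 1.12 ± 0.20, and Gstm6 read low on all arrays, at 5.48, 5.13 and 4.77 against 4.13, 4.07 and 3.83. It was 0.94 and not called without Scf-GFP+ replicate 1. Gstm3, at 0.86 ± 0.16, was called without whole marrow replicate 3, at 1.03. That value is from the brightest array feature of Gstm3. The other feature of Gstm3 alone differed by 0.08, and the mean of all its rows gave 0.47. Gstm5, at 0.76 ± 0.45, was called without whole marrow replicate 2, at 1.30, and leaving out single arrays gave 0.46 to 1.30. The mu-class genes are close in sequence and can share probes.

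Gstt3 read 7.87, 7.44 and 8.11 against 6.80, 6.63 and 6.75, a difference of 1.08 ± 0.18, which was 0.92 and not called without Scf-GFP+ replicate 3. Its neighbour Gstt4 was at -0.01 ± 0.10. Gstt2 read 9.26, 9.53 and 9.31 against 9.03, 8.12 and 8.60 and was called only without whole marrow replicate 1, with 0.78 ± 0.23 over all arrays and 1.01 without it. Gstk1, an enzyme of mitochondria and peroxisomes, read 7.99, 7.73 and 8.30 against 7.04, 5.60 and 6.84. Its 1.51 ± 0.38 was not called without Scf-GFP+ replicate 1 (1.52) or replicate 3 (1.37). Gstz1, an enzyme of tyrosine breakdown, was called higher at 1.25 ± 0.13.

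Gstp1 is the pi-class enzyme found in most tissues. It read 12.14, 12.40 and 12.44 against 11.34, 11.01 and 11.56, high on all arrays, and the difference of 1.02 ± 0.17 came under 2-fold on omission of Scf-GFP+ replicate 2 (0.99), Scf-GFP+ replicate 3 (0.97) or whole marrow replicate 2 (0.88). The related Gstp3 showed the opposite. It read 5.86, 5.40 and 5.74 against 7.55, 8.35 and 7.09, a difference of -2.0 ± 0.32. Gsto1, an omega-class enzyme with thioltransferase activity, read 6.93, 6.27 and 6.61 against 8.09, 7.76 and 7.75, a difference of -1.27 ± 0.19, whereas Gsto2 was at 0.52 ± 0.10 and was not called. For Gstp3, Gsto1 and Aldh3b2, the members called lower, every Scf-GFP+ array lay below every whole marrow array. Scf-GFP+ replicate 1, the array with the most neutrophil signal, was the highest Scf-GFP+ array for Gstp3 and Gsto1, and without it the differences were -2.09 and -1.43.

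Sulfotransferases attach sulfate to phenols, steroids and amines. Of 16 members, 2 were called higher, where 9.01% of all genes were called higher. Sult1a1, the phenol sulfotransferase, read 9.30, 9.70 and 9.40 against 6.56, 7.13 and 6.40, a difference of 2.77 ± 0.22. Sult5a1 read 6.61, 7.05 and 7.32 against 5.49, 5.51 and 5.65, a difference of 1.44 ± 0.19. Groups did not overlap for either gene. The other 14 lay between -0.26 and 0.22, Sult4a1 among them at -0.10 ± 0.11, and 12 of the 16 were below the first quartile of the gene values on every array. All 8 Ugt2 genes, which attach glucuronic acid, were below that quartile on every array and had differences between -0.37 (Ugt2b38) and 0.02 (Ugt2b34), with Ugt2b37 at -0.24 and Ugt2a3 at -0.09. The sign of Ugt2a3 turned with quantile normalization (0.02) and that of Ugt2b34 with median centring (-0.01). Over all conjugating families, 13 of 43 members were called higher and 2 lower, beside 9.01% and 7.89% of all genes. A low array value is not a statement that a transcript is absent.

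**Figure D3:**
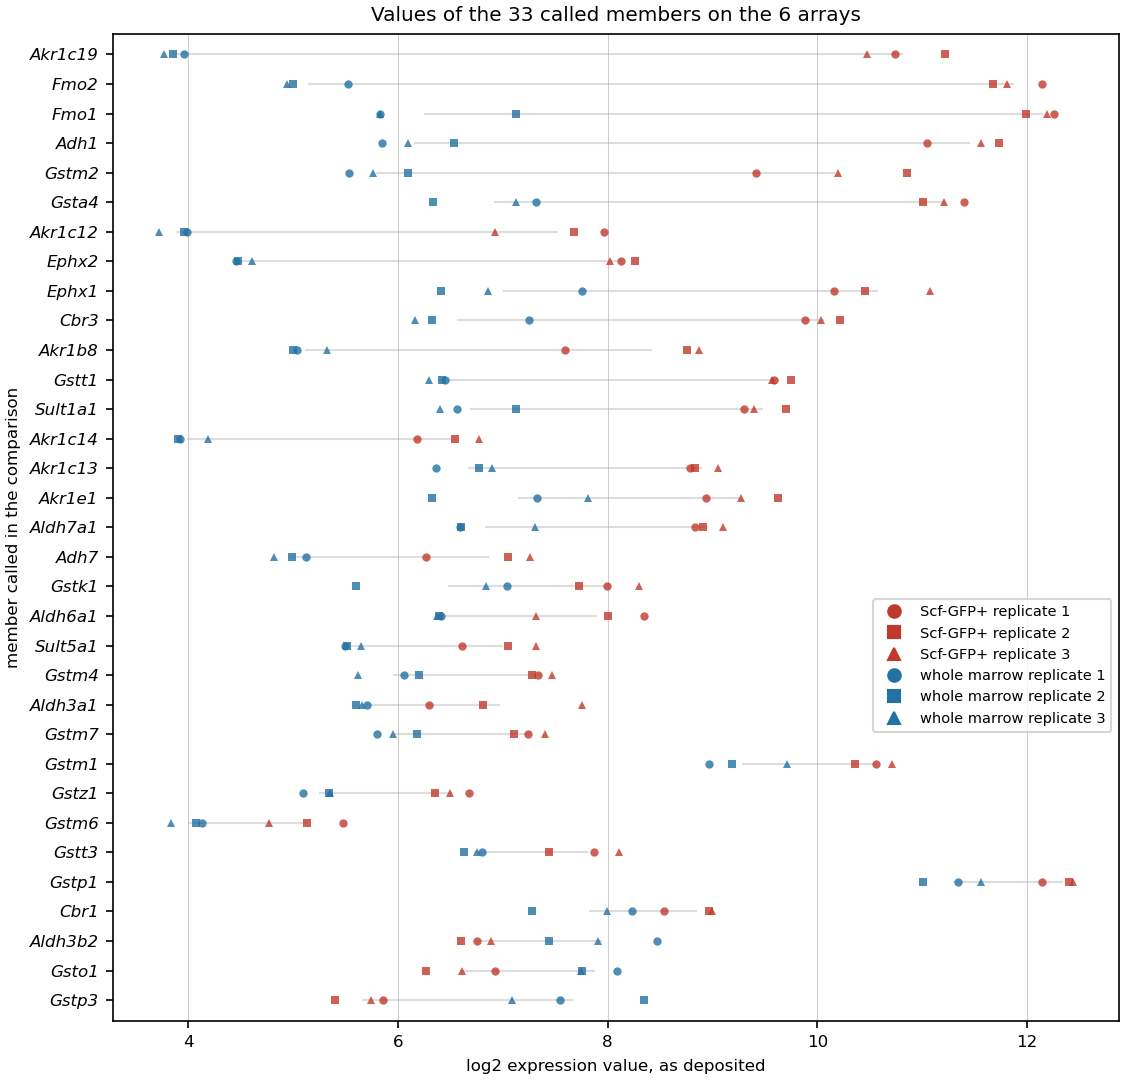
Deposited log2 values (horizontal axis) of the 33 called genes, 1 gene per line, with a point for each array: red for Scf-GFP+ and blue for whole marrow, circles, squares and triangles for replicates 1, 2 and 3. Grey lines join the group means. Akr1c19, at the top, reads 10.47 to 11.22 in Scf-GFP+ cells and 3.77 to 3.96 in whole marrow, and no called gene's groups overlap.

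The arrays that gave the members' spread were not always the same. Over the 30 genes called higher, Scf-GFP+ replicate 1 was the lowest Scf-GFP+ array in 15, replicate 2 in 9 and replicate 3 in 6. Of these 30, 24 were called higher in all 6 fits that left out 1 array, and 2 of the 3 called lower stayed called, Aldh3b2 being the exception. Without Scf-GFP+ replicate 1, 28 were called higher, against 1698 of all genes. The term for the sex-linked split in effect compares Scf-GFP+ replicate 3 with whole marrow. With it 25 were called higher and 2 lower, and Akr1e1 (2.11), Aldh6a1 (0.93), Cbr1 (1.16), Gstk1 (1.80), Gstm6 (0.76) and Aldh3b2 (-1.05) lost the call. Akr1c19, Fmo2 and Adh1 were at 6.61, 6.65 and 5.40 on this reading.

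Upstream windows were available for 83 of the 96 genes in the RefSeq table and were searched on both strands for motif cores named in the field. The core of the antioxidant response element, TGACNNNGC, is bound by Nfe2l2. It was in the windows of 1 of 25 genes called higher, 5 of 56 not called and 11.5% of all genes in the table. The core of the dioxin response element, GCGTG, was in 4 of 25, 10 of 56 and 30.9%, the 4 being Akr1b8, Cbr1, Gstm1 and Gstp1. The early B cell factor site CCCNNGGG, shown because Ebf3 was among the stromal markers, was in 3 of 25, 3 of 56 and 13.4%. Matches of the first and the third core among genes called higher are printed in windows of 31 bases with the match in capitals: chr3:107931724-107931754 on the minus strand for Gstm7 (antioxidant response element core), and for the early B cell factor site chr12:84451096-84451126 on the minus strand for Aldh6a1, chr6:42245844-42245874 on the plus strand for Gstk1 and chr8:123158291-123158321 on the minus strand for Sult5a1, all on GRCm38.p6.
Gstm7: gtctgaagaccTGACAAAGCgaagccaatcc
Aldh6a1: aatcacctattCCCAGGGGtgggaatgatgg
Gstk1: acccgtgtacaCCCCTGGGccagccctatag
Sult5a1: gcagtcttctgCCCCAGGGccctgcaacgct
Among genes called lower, Gstp3 had the GCGTG letters and neither other core was found in the windows that 2 of the 3 have. Median GC content of the windows was 51.0% for genes called higher, 45.6% for those not called and 52.4% for all genes in the table. The absence of a core says only that those letters are not within 250 bases upstream.

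Other genes of the pathway were taken from 5 lists written with earlier results known, and their adjusted p comes from limma over all genes. In the list on glutathione supply and turnover, both subunits of the rate-limiting enzyme of its synthesis were lower. Gclc, the catalytic subunit, read 7.39, 7.54 and 7.59 against 10.20, 10.22 and 9.83 (difference -2.58 ± 0.14, limma adjusted p = 3.31e-05), and Gclm, the modifier subunit, read 7.56, 7.44 and 7.45 against 9.0, 9.90 and 9.16 (-1.87 ± 0.24, limma adjusted p = 0.00146). The next enzyme of synthesis, Gss, was at -0.42 and the cystine carrier Slc7a11 at -0.45, neither called. Among genes whose products break glutathione conjugates down, Dpep1 read 10.88, 11.10 and 11.90 against 6.05, 5.97 and 5.82 (5.35 ± 0.26, limma adjusted p = 2.14e-05), and Ggt5 read 10.47, 9.98 and 10.36 against 6.65, 7.19 and 7.18 (3.26 ± 0.20, limma adjusted p = 5.99e-05), while Ggt6 and Ggt7, of the same family as Ggt5, were not called, at -0.17 and 0.44. Of 14 measured genes, 3 passed as higher and 4 as lower. The median was -0.37, where 9.01% and 7.89% of all genes were called and their median was -0.08. Anpep (1.68) was also called higher, and Chac2 (-1.65), whose product breaks glutathione itself down, was also called lower. Ggct, at -1.34 with limma adjusted p = 0.0271, lost its call without Scf-GFP+ replicate 2 (0.0558), whole marrow replicate 1 (0.0797) or whole marrow replicate 3 (0.0671), over alternatives that ranged from 0.0194 to 0.271.

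Electron and cosubstrate supply had 3 of 13 genes called higher, with a median of 0.50. Over all genes, 9.01% were called higher and the median was -0.08. Me1, a source of NADPH, was at 1.84 ± 0.33 (limma adjusted p = 0.00738), Papss2, which makes the sulfate donor, at 1.76 ± 0.27 (limma adjusted p = 0.00354) and Idh1, another source of NADPH, at 1.35 ± 0.15 (limma adjusted p = 0.000869). Each group of arrays lay apart from the other in these 3 genes. Pgd, also a source of NADPH, went the other way at -0.81 and was not called, though its Scf-GFP+ arrays all lay below whole marrow. G6pdx and Por, also on the list, were not measured. Papss1 was not called with all arrays and was called higher at 1.13 without Scf-GFP+ replicate 2 and at 1.03 without whole marrow replicate 2.

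Other enzymes of foreign compound metabolism had 6 of 28 called higher and 3 lower, with a median of -0.08. The shares over all genes were 9.01% and 7.89%, and the median was also -0.08. Maob, which deaminates amines, read 10.26, 10.10 and 9.62 against 5.17, 4.74 and 4.75 (5.10 ± 0.21, limma adjusted p = 1.12e-05), and Nnmt, which methylates nicotinamide, was at 2.37 ± 0.21 (limma adjusted p = 0.000262). Microsomal glutathione transferases Mgst2 and Mgst3 fell, at -4.08 ± 0.37 (limma adjusted p = 0.0003) and -3.09 ± 0.29 (limma adjusted p = 0.000367). Their relative Mgst1 was called higher at 1.05, as were 11 of the 19 Gst members. Mgst1 was not called when Scf-GFP+ replicate 2 (0.91) or whole marrow replicate 2 (0.97) was left out, nor Tpmt (1.11) without Scf-GFP+ replicate 2 (0.86), whole marrow replicate 1 (1.09) or whole marrow replicate 2 (1.03). Nqo1, a known target gene of Nfe2l2, was not called with all arrays but was at -1.16 and called lower without Scf-GFP+ replicate 1, and Aox1 was called higher, at 1.37, without Scf-GFP+ replicate 2.

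Sensors of foreign compounds and oxidative stress had 1 of 14 called higher and 2 lower, with a median of -0.30. Over all genes, 9.01% were called higher and 7.89% lower, and the median was -0.08. Ahr, the dioxin receptor, read 6.43, 6.88 and 6.44 against 6.57, 6.53 and 6.63, and Nfe2l2 read 10.35, 9.95 and 9.98 against 10.34, 10.11 and 9.88, so the groups overlapped in both. Bach2, a repressor that competes at antioxidant elements, fell by 1.26 (limma adjusted p = 0.0042). Mafk, a partner of Nfe2l2, fell by 1.05 and was no longer called without whole marrow replicate 2 (-0.91). Arnt, the partner of Ahr, was higher by 1.03 (limma adjusted p = 0.0275, and 0.0207 to 0.19 over the alternatives). Its call ended on omission of Scf-GFP+ replicate 1 (0.90), 2 (1.12) or 3 (1.07), or of whole marrow replicate 1 (0.74). Export pumps had 1 of 8 called higher, beside the same 9.01% of all genes: Abcc5 at 1.32 ± 0.14 (limma adjusted p = 0.00073). Without Scf-GFP+ replicate 3, Abcb1a (1.49) and Abcg2 (1.02) were also called higher, for 3 in all.

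**Figure D4:**
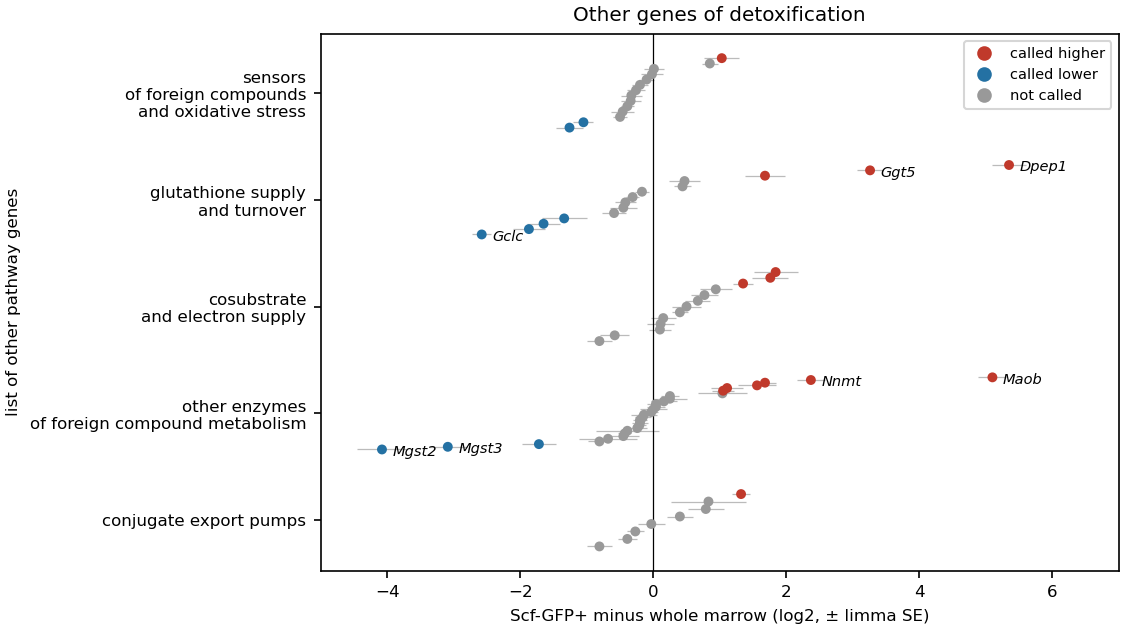
Difference between Scf-GFP+ and whole marrow arrays (log2, horizontal axis, with limma's SE) for each measured gene of 5 lists of other detoxification genes, 1 list per row. Dpep1 at 5.35 and Maob at 5.10 lie farthest right, and Mgst2 at -4.08 farthest left.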

How the data were processed

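The authors deposited log2 expression values for the 6 arrays, with RMA, affy and limma listed in the submitters' processing notes without versions or roles. Genome build and annotation are not stated among the sources used here. Values were used as deposited, and their medians lay between 6.56 and 6.63. Of 28940 rows, 21789 had exactly 1 gene symbol, 1621 had several and 5530 had none. For the 999 genes with several rows, the row with the highest mean stood for the gene, which left 19938. Groups were compared with limma 3.58.1 in R 4.3.3, without covariates, and the fit was tested on simulated data. RMA-like values have no detection call and compress high and low ends, the number of arrays limits precision, and levels of different genes are not compared. Windows were read from a RefSeq table of GRCm38.p6 and aligned with Biopython 1.88 in Python 3.11.15. Genes named were the leading 3, the 12 largest called differences in each direction, the largest and up to 3 brightest of each family, the 3 nearest the 2-fold limit on each side, those whose call changes without 1 array, and up to 4 of each other list. Genes named beyond this, such as Aldh2 and cluster neighbours, were chosen after their values were seen. The members and lists were chosen with earlier results of these data known. A planned comparison of protein sequences was not run here. Alternatives tried were quantile normalization, median centring, a filter on dim genes, the mean of all rows per gene, rows with several symbols, eBayes with an intensity trend or made robust, the replicate block, a term for the sex-linked split, other fold limits and leaving out each array.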

Additional observations from a re-analysis of the deposited data

How the results depend on the processing

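With a 4-fold minimum, 17 members were called higher and 0 lower by limma, against 758 and 738 of all genes. The 5 pathway lists then had 4 genes higher and 3 lower (glutathione 3, other enzymes 4, and 0 each for sensors, cosubstrates and export pumps). With no fold minimum, all genes gave 2758 higher and 2635 lower, and the lists had 15 lower, with calls of 6 sensors, 7 cosubstrate genes and 2 export pumps. With the term for the sex-linked split, 1 sensor was called, against 3. Leaving out 1 array gave 26 to 30 members higher and 3 to 4 lower, and 1 to 3 export pumps. Over all genes these fits gave 1618 to 1822 higher and 1448 to 1560 lower. Median centring and quantile normalization each gave 28 members higher and 3 lower, losing Cbr1 and Gstp1, and centring moved the all-gene median from -0.08 to -0.11. Over all genes, centring gave 1740 higher and 1629 lower, and quantile normalization 1752 and 1632. The filter on dim genes left 53 members, 25 of them called higher and 3 lower. Among all genes it left, 1749 were called higher and 1506 lower. The shares of 9.01% and 7.89% are of the unfiltered genes and are no measure for these counts. Of 682 recomputed differences of 46 named members, 666 stayed within the replicate spread and 16 moved. The called members among them kept their direction, and 5 not called (Aldh3a2, Aldh3b1, Ephx3, Ugt2a3 and Ugt2b34) turned sign in 10 of these values. With the replicate block, 29 members were called higher and 3 lower, against 1775 and 1563 of all genes. Cbr1 was the member that lost its call, and Arnt and Ggct lost theirs. Same-numbered arrays deviated with correlations of -0.063, -0.0218 and 0.0662, and pairs with unlike numbers with -0.0865 to 0.108. These values cannot show whether same-numbered arrays shared a sort or a batch.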

Other observations

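Array features that match several of these genes could not be assigned to 1 and are given as values only. The feature shared by 8 Ugt1a genes, which include enzymes that conjugate bilirubin, read 5.61, 5.67 and 5.47 on Scf-GFP+ replicates 1, 2 and 3 and 6.49, 6.69 and 6.30 on whole marrow replicates 1, 2 and 3. Its difference was -0.91, unlike the low and level Ugt2 genes. The feature shared by Aldh3b2 and Aldh3b3 read 6.20, 6.10 and 6.02 against 7.46, 7.69 and 7.58, a difference of -1.47. Other features of Aldh3b3 alone differed by -1.03 and -1.22, where the brightest differed by -0.45. Both features shared by Gstp1 and Gstp2 were higher in Scf-GFP+ cells, by 0.92 and 0.90. The 4 features shared by Gsta1, Gsta2, Gm10639 and Gm3776 lay between -0.12 and -0.05.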
